A study of Homo sapiens with 84 samples.

Results

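Of 861439 regions of open chromatin (peaks) measured by ATAC-seq in cell lines of triple-negative breast cancer, 583 (0.0677%) were open in 3 mesenchymal lines and closed in nearly all of 5 basal epithelial lines. These members were selected on their own values in DMSO. CPM, the count scaled to the library total, was averaged over the DMSO libraries of each line, and a member had at least 1 CPM in each of MDA-MB-231, SUM-159PT and BT-549 and less than 0.5 CPM in 4 or more of MDA-MB-468, BT-20, HCC1143, HCC1937 and SUM-149PT. The difference between these 2 classes of line in DMSO is therefore the choice itself and is given as a description, with no test. All 5 basal epithelial lines were below 0.5 CPM at 140 members, and exactly 4 of them at 443. Of the 75270 peaks with at least 1 CPM in each of the 3 mesenchymal lines, the members made up 0.774%.

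ATAC-seq uses the Tn5 transposase to cut and tag accessible DNA, so that the count in a peak rises with how open that stretch is over all cells of the culture. In such bulk counts, fewer cells with an open site and less opening in each cell cannot be told apart. The lines were given tazemetostat, an inhibitor of the histone methyltransferase EZH2, ipatasertib, an inhibitor of the AKT kinases, both agents together (the combination), or DMSO, each agent at 5 uM. MDA-MB-231, SUM-159PT, MDA-MB-468 and SUM-149PT had all 4 arms. BT-549, BT-20, HCC1143, HCC1937 and HCC1395 had the combination and DMSO. For MDA-MB-468 the submitters describe tazemetostat or DMSO from day -5, then ipatasertib in medium with 2% serum for the last 24 hours before collection, and this is assumed for every group here. Each of the 26 groups had 3 libraries, and each line is 1 established culture of tumour cells without stroma. The classes are thus compared over 3 and 5 lines. The labels do not give the class of a line, which comes from the rule, and they do not say whether the libraries of a group came from separate cultures.

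Epithelial cells hold together through adherens and tight junctions, while mesenchymal cells carry vimentin filaments, move singly and remodel the matrix around them. The transition between these states is driven by repressors such as ZEB1 and SNAI2, with growth factor and TGF-beta signals upstream. Much of the difference between cell states lies in distal enhancers, short regulatory stretches in introns and between genes, rather than in promoters. Enhancers of mesenchymal cells are often bound by AP-1 and TEAD factors. EZH2 is the catalytic subunit of PRC2, which methylates histone H3 over silenced genes and is associated with closed chromatin.

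The class names were checked on marker promoters that are not members, summing the peaks within 1 kb of the start of each marker gene. Promoters of mesenchymal effector genes summed to 278 to 374 CPM in the 3 mesenchymal lines, against 90.5 to 224 CPM in the 5 basal epithelial lines. Promoters of epithelial junction genes summed to 111 to 267 CPM in the mesenchymal lines, against 444 to 474 CPM in the basal epithelial lines, with no overlap in either list. Those of EMT transcription factors overlapped, with 95.4 to 227 CPM in the mesenchymal lines and 69.9 to 171 CPM in the basal epithelial lines. Endothelial and immune promoters lay at 58.4 to 92.0 CPM in mesenchymal and 58.5 to 89.1 CPM in basal epithelial lines. HCC1395, which the rule did not use, had 224 CPM at mesenchymal effector promoters and 157 CPM at epithelial junction promoters. The effector value is below every mesenchymal line and within the range of the basal epithelial lines. The junction value is within the range of the mesenchymal lines and below every basal epithelial line, although its libraries had 139, 139 and 192 CPM.

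Libraries held 12292571 to 21459284 counts in peaks, so that 1 CPM stood for 12.3 to 21.5 counts in a library. Libraries of the same group were set against each other in 78 pairs. In 76 of them the variance of the difference was below that of Poisson counting, at a median ratio of 0.853, so that they differed by less than the sampling noise. The 3 libraries of a group were therefore counted as 1 sample, and tests were made across lines. The exception was DMSO replicate 3 of HCC1395, whose ratio was 1.731 against replicate 2 and 1.697 against replicate 1. The shares and calls that rest on HCC1395 are given with and without that library.

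Only 9 members overlapped a RefSeq promoter window (250 bases before to 50 bases after a start, GRCh38.p14), and these touch 10 of the 35116 windows. The AP-1 motif TGANTCA, searched on both strands, lay in 3 of the 9 windows covered by at least 150 bases, against 7.71% of all windows. Of these 9, those of ZNF660 and ZNF660-ZNF197 are the same stretch. The 3 are those of GJA1, F2RL2 and ZNF474-AS1, and they are printed with that of WWTR1, a window without the motif, to show the sequence under these members. Bases run 5′ to 3′ on the gene's strand, with the AP-1 motif in capitals.
GJA1, chr6:121435396-121435695 (plus strand): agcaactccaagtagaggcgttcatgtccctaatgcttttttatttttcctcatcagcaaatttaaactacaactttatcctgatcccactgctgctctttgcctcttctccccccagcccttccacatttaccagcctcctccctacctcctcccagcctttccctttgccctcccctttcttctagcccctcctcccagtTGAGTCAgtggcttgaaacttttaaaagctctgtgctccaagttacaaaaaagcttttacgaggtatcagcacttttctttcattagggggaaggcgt
F2RL2, chr5:76623354-76623653 (minus strand): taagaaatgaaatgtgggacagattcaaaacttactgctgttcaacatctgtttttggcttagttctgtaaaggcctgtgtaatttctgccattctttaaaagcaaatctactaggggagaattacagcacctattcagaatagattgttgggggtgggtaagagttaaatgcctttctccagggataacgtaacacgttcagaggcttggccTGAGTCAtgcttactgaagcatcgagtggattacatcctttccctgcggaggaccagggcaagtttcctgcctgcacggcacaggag
ZNF474-AS1, chr5:122154845-122155144 (minus strand): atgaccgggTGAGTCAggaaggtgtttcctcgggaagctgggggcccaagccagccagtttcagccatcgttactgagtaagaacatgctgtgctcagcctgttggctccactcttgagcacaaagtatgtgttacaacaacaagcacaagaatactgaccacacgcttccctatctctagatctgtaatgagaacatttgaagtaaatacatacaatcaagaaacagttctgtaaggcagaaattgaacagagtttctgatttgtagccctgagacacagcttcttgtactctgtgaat
WWTR1, chr3:149703224-149703523 (minus strand): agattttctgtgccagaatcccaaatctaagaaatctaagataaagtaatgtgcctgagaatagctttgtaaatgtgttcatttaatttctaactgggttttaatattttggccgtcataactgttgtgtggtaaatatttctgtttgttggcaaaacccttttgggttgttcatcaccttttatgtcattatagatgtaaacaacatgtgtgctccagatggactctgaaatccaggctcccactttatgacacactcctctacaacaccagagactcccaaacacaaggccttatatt
GJA1 encodes connexin 43, a gap junction protein. F2RL2 encodes the protease-activated receptor PAR3. ZNF474-AS1 is a non-coding RNA. WWTR1 encodes TAZ, the co-activator of TEAD factors in the Hippo pathway. The RUNX motif TGTGGT was also in 3 of 9 windows, against 13.1% of all, the ETS motif CCGGAA in 3 of 9, against 17.2%, and the TEAD motif GGAATG in 0 of 9, against 14.0%, each on both strands. The ETS count holds the shared stretch of ZNF660 and ZNF660-ZNF197 under both names. The SP/KLF motif GGGCGG was in 3 of 9, against 44.95%, with that stretch again under both names. The E-boxes CACCTG and CAGCTG and the FOX motif TGTTTAC were in 1 of 9 each, against 20.6%, 17.95% and 3.42%. Motifs of GRHL, GATA, CRE and NFI were in 0 of 9. Median GC content was 47% in these windows, against 58.7% in all, and the counts were not adjusted for it. With 9 windows these counts are a description only, and a match in letters is not a bound site.

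Some members were assigned to microRNA genes as the nearest start. Mature products (RefSeq, GRCh38.p14) of 4 microRNAs are shown because 2 of them share a seed and the last belongs to the gene assigned to a member that was higher with tazemetostat in MDA-MB-468, although that member lies 259385 bp from its start. MicroRNAs bind messenger RNAs mainly through the seed, bases 2 to 8 from the 5′ end, given in capitals.
hsa-miR-221-3p, chrX:45746180-45746202 (minus strand): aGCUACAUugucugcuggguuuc
hsa-miR-222-3p, chrX:45747036-45747056 (minus strand): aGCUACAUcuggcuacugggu
hsa-miR-146b-5p, chr10:102436520-102436542 (plus strand): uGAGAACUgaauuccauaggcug
hsa-miR-573, chr4:24520252-24520275 (minus strand): cUGAAGUGauguguaacugaucag
The seed of miR-221-3p and miR-222-3p is the same, GCUACAU, and their genes lie within 1 kb of each other on chromosome X. Of the 7 peaks assigned to MIR222, 3 (42.9%) were members, and no member was assigned to MIR221. The strongest, at chrX:45755603-45755998, had 3.96 CPM in MDA-MB-231, 1.001 in SUM-159PT and 3.02 in BT-549, against 0.231 to 0.461 CPM in the 5 basal epithelial lines. Together with a member beside the pseudogene MFFP3 they made a cluster of 4 members over 41.2 kb. The member nearest MIR146B had 1.004 CPM in MDA-MB-231, 1.55 in SUM-159PT and 1.54 in BT-549, against 0.0622 to 0.478 CPM in 4 basal epithelial lines and 1.201 in HCC1143. miR-146b acts as a brake on NF-kB signalling.

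In DMSO the members had a median of 2.00 CPM in MDA-MB-231, 2.12 CPM in SUM-159PT and 1.71 CPM in BT-549. The median was 0.231 CPM in MDA-MB-468, 0.289 in BT-20, 0.308 in HCC1143, 0.321 in HCC1937 and 0.352 in SUM-149PT. Most members were modest peaks: 79 had at least 2 CPM in each mesenchymal line, and 60 averaged at least 5 CPM over the 3. Many lay close to the thresholds. The lowest mesenchymal value of 161 members was within 10% above 1 CPM, and 195 peaks missed the rule by as little on that side. Similarly, 152 members lay within 10% below 0.5 CPM in the highest of their 4 lowest basal epithelial lines, and 167 peaks lay as close above it.

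**Figure D1:**
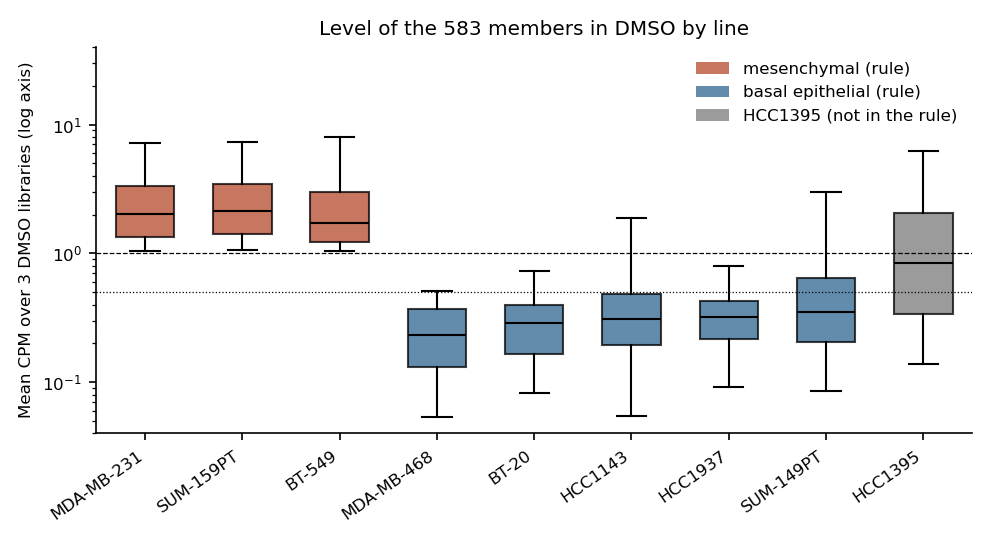
Level of the 583 members in DMSO in each of 9 lines (y axis, mean CPM over 3 libraries, log axis). Boxes span the quartiles with the median, whiskers the 5th to 95th percentile. The dashed and dotted lines mark the rule's 1 and 0.5 CPM, and HCC1395, with a median of 0.840 CPM, lies between the classes that the rule separated.

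The basal epithelial lines were not alike in which members were not closed. Among the 443 members closed in exactly 4 of them, the line at 0.5 CPM or more was SUM-149PT at 169, HCC1143 at 121, HCC1937 at 66, BT-20 at 56 and MDA-MB-468 at 31. In SUM-149PT 97 of its 169 reached 1 CPM, in HCC1143 65, in HCC1937 20, in BT-20 21 and in MDA-MB-468 13. MDA-MB-468 had the lowest summed level of the members, 176 ± 6.7 CPM, and SUM-149PT the highest of the basal epithelial lines, 455 ± 18.1 CPM (SD over 3 libraries). The highest single value was 14.2 CPM in SUM-149PT and 13.6 CPM in MDA-MB-468, there at a member assigned to LINC02115.

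Peaks are named by the gene with the nearest start in the authors' annotation, which need not be the gene they act on. The members were assigned to 477 of 25868 genes (1.84%), of which 318 code for protein and 144 are long non-coding RNAs, and 80 genes had 2 or more. Among mesenchymal effectors, 2 of 19 measured genes had members, VIM and LOXL2, with 3 each. VIM encodes vimentin, the intermediate filament protein of mesenchymal cells. Its 3 members lie 5179 to 6135 bp downstream of the start, within 1.11 kb of each other, and are 3 of the 7 peaks assigned to it. The highest, chr10:17233420-17233932 in an exon, had 8.26 CPM in MDA-MB-231, 3.46 in SUM-159PT and 11.8 in BT-549, against 0.1902 to 0.357 CPM in the 5 basal epithelial lines. The lowest mesenchymal value there was thus far above every basal epithelial value. LOXL2 encodes a lysyl oxidase that crosslinks collagen. Its highest member, chr8:23365682-23367048 in an exon, had 2.54 CPM in MDA-MB-231, 1.54 in SUM-159PT and 4.33 in BT-549, against 0.124 to 0.442 CPM in the 5 basal epithelial lines.

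Of the EMT transcription factors, 1 of 10 measured genes, ZEB1, had members. ZEB1 is the zinc finger repressor of epithelial genes, and the higher of its 2 members, chr10:31425926-31426964 in an intron, had 3.21 CPM in MDA-MB-231, 3.19 in SUM-159PT and 3.89 in BT-549, against 0.0774 to 0.568 CPM in the 5 basal epithelial lines. SNAI1, SNAI2, TWIST1 and the other factors of that list had no member. Receptor kinases and their ligands held the largest share of listed genes, with 5 of 13 and 7 members, and 4 of the 13 also had a peak of the opposite set. Per peak the share was 0.541% there, against 0.69% for mesenchymal effectors and 0.645% for cytokines. ROR1, a receptor for WNT5A, had 3, the highest at chr1:63745919-63746958, upstream of the start. There the level was 8.88 CPM in MDA-MB-231, 13.3 in SUM-159PT and 2.00 in BT-549, against 0.124 to 0.398 CPM in 4 basal epithelial lines and 1.63 in HCC1143. Another ROR1 member, chr1:64087400-64088552, had 5.42 CPM in MDA-MB-231, 2.802 in SUM-159PT and 9.15 in BT-549, and 3.996 CPM in SUM-149PT, the basal epithelial line in which it was open. The PDGF receptor gene PDGFRA had 1.48 CPM in MDA-MB-231, 1.13 in SUM-159PT and 2.17 in BT-549, against 0.155 to 0.549 CPM in the 5 basal epithelial lines. DDR2, a collagen receptor, had 1.42 CPM in MDA-MB-231, 3.32 in SUM-159PT and 1.42 in BT-549, against 0.0974 to 0.455 CPM in 4 basal epithelial lines and 0.669 in HCC1937.

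The member in an intron of MET, the receptor of hepatocyte growth factor, had 2.37 CPM in MDA-MB-231, 1.48 in SUM-159PT and 1.33 in BT-549, against 0.141 to 0.351 CPM in 4 basal epithelial lines and 1.98 in SUM-149PT. That of FGF5, a fibroblast growth factor, had 2.43 CPM in MDA-MB-231, 1.14 in SUM-159PT and 1.04 in BT-549, against 0.0176 to 0.332 CPM in 4 basal epithelial lines and 1.42 in HCC1143. In the TGF-beta and BMP list 2 of 14 genes had a member, TGFB1, the ligand, and LTBP1, which holds latent TGF-beta in the matrix. At LTBP1 the level was 1.87 CPM in MDA-MB-231, 3.58 in SUM-159PT and 1.49 in BT-549, against 0.0859 to 0.446 CPM in 4 basal epithelial lines and 0.737 in HCC1143. Single members lay at WWTR1, at ITGA11, a collagen-binding integrin, at the transcription factor gene ETS1, at the cytokine gene TSLP and at KDM6A, which encodes a demethylase that removes the PRC2 mark. The TSLP member had 2.53 CPM in MDA-MB-231, 1.83 in SUM-159PT and 14.2 in BT-549, against 0.338 to 0.452 CPM in 4 basal epithelial lines and 1.09 in HCC1143. None of the measured genes in the lists of collagens (14), AP-1 subunits (11), epithelial junction genes (18), basal keratins and p63 (13), luminal genes (15), endothelial and immune genes (8), housekeeping genes (9) or PRC2-silenced developmental genes (14) had a member. These lists held only 127 (housekeeping) to 1089 (collagens) peaks each, and members made up 0.0677% of all peaks. So few peaks would often hold no member, and nothing is read from the absence. A gene without a member can still have open peaks in mesenchymal lines, since the rule also asks that the basal epithelial lines be closed.

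**Figure D2:**
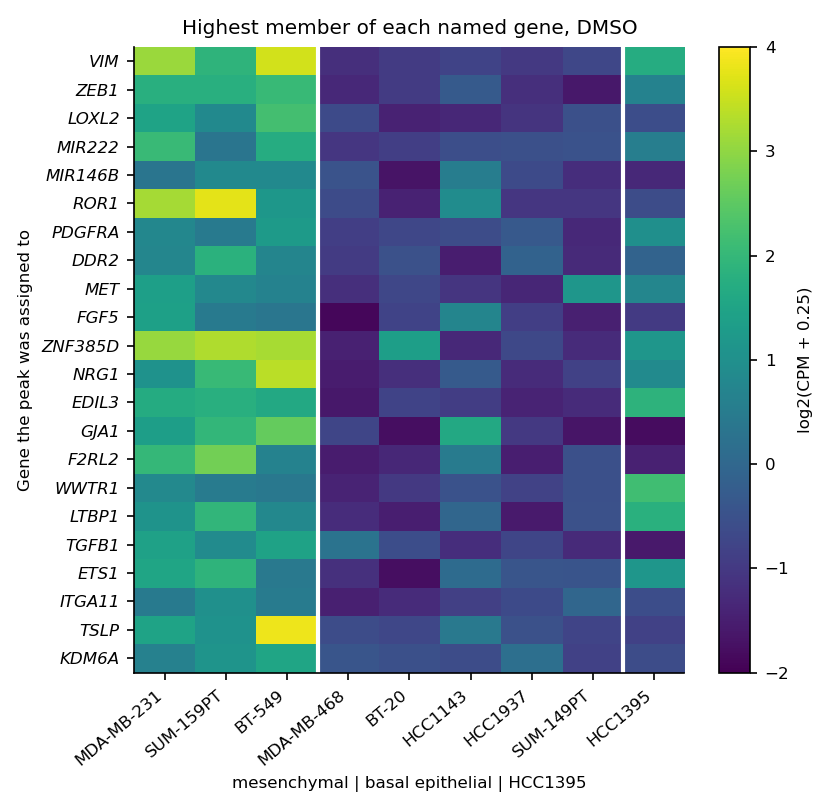
Level in DMSO of the highest member of each of 22 named genes (rows) in 9 lines (columns), as log2(CPM + 0.25) on the colour scale. The first 3 columns are the mesenchymal lines and the last is HCC1395; ROR1 and VIM reached 13.3 and 11.8 CPM in single mesenchymal lines, while GJA1 stood at 2.80 CPM in HCC1143 and WWTR1 at 4.20 CPM in HCC1395.

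By number, ZNF385D, a zinc finger gene on chromosome 3, led with 8 members among its 306 peaks. They ran from 102869 to 717967 bp from its start, and the highest, chr3:21654285-21655354, had 8.18 CPM in MDA-MB-231, 9.57 in SUM-159PT and 8.99 in BT-549, against 0.114 to 0.365 CPM in 4 basal epithelial lines and 2.32 in BT-20. NRG1, which encodes neuregulin, a ligand of ERBB3 and ERBB4, had 6 members among 428 peaks. The NRG1 member at chr8:32341064-32341757 had 4.52 CPM in MDA-MB-231, 6.08 in SUM-159PT and 4.42 in BT-549, against 0.0937 to 0.476 CPM in the 5 basal epithelial lines. RALYL, an RNA-binding protein gene, followed with 5 and PDE4D, a cyclic AMP phosphodiesterase gene, with 4. Another 11 genes had 3 each, among them EDIL3, a secreted integrin ligand, LOXL2, VIM, ROR1, ZNF395, PSD3 and ANK3. Of the 15 genes with 3 or more, PDE4D had the lowest ratio between the classes, its members averaging 1.91 CPM over mesenchymal and 0.602 CPM over basal epithelial lines, with 4.24 and 3.32 CPM in HCC1143 at 2 of them.

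Members of the highest mean level often owed it to a single line. The first, in an intron of the urea transporter gene SLC14A2, had 1.14 CPM in MDA-MB-231, 5.54 in SUM-159PT and 32.3 in BT-549, against 0.174 to 0.341 CPM in 4 basal epithelial lines and 1.02 in MDA-MB-468. The second, upstream of F2RL1, the gene of the protease-activated receptor PAR2, had 25.4 CPM in MDA-MB-231, 4.45 in SUM-159PT and 1.15 in BT-549, against 0.2602 to 0.432 CPM in 4 basal epithelial lines and 1.05 in HCC1937. The next, in the 5' UTR of an SSH1 transcript, a cofilin phosphatase gene, had 1.23 CPM in MDA-MB-231, 26.8 in SUM-159PT and 1.496 in BT-549, against 0.191 to 0.465 CPM in the 5 basal epithelial lines. In contrast, the HDX promoter had 9.71 CPM in MDA-MB-231, 8.201 in SUM-159PT and 9.34 in BT-549, the ZNF395 exon 7.19 CPM in MDA-MB-231, 9.84 in SUM-159PT and 9.77 in BT-549, and the peak upstream of CTLA4 9.97 CPM in MDA-MB-231, 9.74 in SUM-159PT and 6.54 in BT-549, and none of these rested on a single line. HDX is a homeobox gene, and its promoter had 0.0974 to 0.371 CPM in 4 basal epithelial lines with 2.44 CPM in SUM-149PT. The remaining 4 of the 10 highest were assigned to ZNF385D, LOC102724749, LINC02115 and CABLES1.

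In genomic class the members were close to peaks at large. Promoter peaks, those within 3 kb of a start, made up 4.63% of members, against 6.09% of the opposite set, 5.59% of all peaks and 28.4% of the 50771 peaks open in all 8 lines. Introns held 55.1%, against 51.1% of all peaks, exons 10.5%, and stretches between genes 27.96%, against 32.7%. Only 13 members lay within 1 kb of a start. The median distance to the nearest start was 77.3 kb, against 46.2 kb for the 2955 peaks with the opposite pattern (at least 1 CPM in 4 or more of the 5 basal epithelial lines and less than 0.5 CPM in each of the 3 mesenchymal lines), 17.6 kb for peaks open in all 8 lines and 56.1 kb for all peaks. Beyond 100 kb lay 43.1% of members and 28.8% of the opposite set. The median width was 732 bp for members and 741 bp for the opposite set, against 1221 bp for peaks open in all 8 lines and 295 bp for all peaks. Of the members, 156 had another within 100 kb, and at that spacing the 583 fell into 496 separate loci.

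Members were unevenly spread over the genome. Chromosome 8 held 85 (14.6%), against 1.39% of the opposite set and 5.92% of all peaks. Chromosome 5 held 59 (10.1%), against 3.32% and 6.48%, and the X chromosome 29 (4.97%), against 3.18% and 2.51%. The other peaks around members were also lower in the basal epithelial lines. Over peaks within 1000 kb of a member but more than 10 kb away, the log2 ratio of mean DMSO levels, basal epithelial over mesenchymal, had a median of -0.33 (10th to 90th percentile -0.91 to 0.09). It was 0.13 around the opposite set, 0.0024 around peaks open in all 8 lines and -0.0021 around all peaks, while the members' own median was -2.43. Around 43 members (7.38%) the regional ratio was below -1, against 0.656% of all peaks.

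The regional difference varied between chromosomes. Around members on chromosome 8 the median regional log2 ratio was -0.72, against -0.35 around all peaks of that chromosome. On the X chromosome it was -0.55 around members and -0.25 around all peaks, and on chromosome 5 it was -0.44 around members and -0.20 around all peaks. It did not follow the number of members alone: it was -0.46 around the 11 members of chromosome 18 and -0.08 around the 43 of chromosome 1. More copies of a chromosome stretch and a more open stretch cannot be told apart in these counts. How much of the members' difference goes with the level of the surrounding region was not tested.

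**Figure D3:**
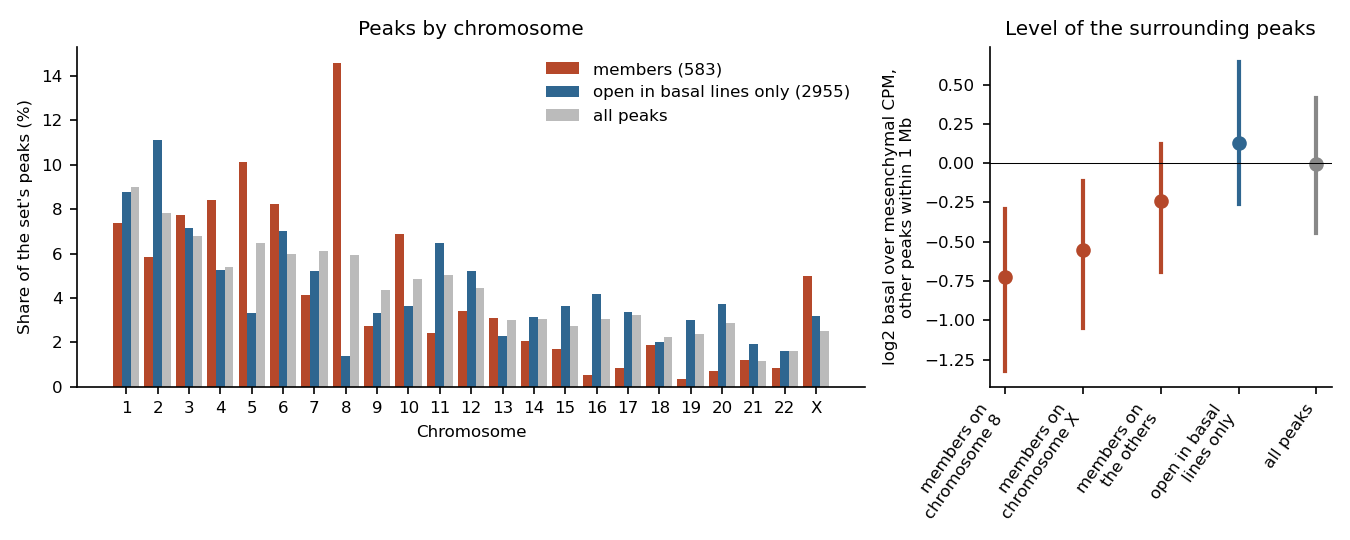
Left, share of members, of the opposite set and of all peaks on each chromosome (percent). Right, regional log2 ratio of DMSO levels, basal epithelial over mesenchymal lines, for the other peaks within 1000 kb, as the median with the 10th to 90th percentile, for members on chromosome 8 (-0.72), on X (-0.55) and on the other chromosomes, for the opposite set (0.13) and for all peaks (-0.0021).

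HCC1395 took no part in the rule and offers a reading that the choice did not fix. In DMSO the members had a median of 0.840 CPM there, and 253 (43.4%) reached 1 CPM while 213 (36.5%) were below 0.5 CPM. The single DMSO libraries gave 42.2% to 45.5% at 1 CPM or more, and 43.9% was reached without DMSO replicate 3. Among all peaks 17.6% reached 1 CPM and 72.4% were below 0.5 CPM, and 24.2% of the opposite set reached 1 CPM, or 19.7% without DMSO replicate 3. The share was 34.1% for members on chromosome 8 and 44.98% for the rest. The 4 highest members in HCC1395 were assigned to SLC14A2 with 26.6 CPM, TBL1X, a corepressor gene, with 16.5 CPM, CABLES1, a regulator of cyclin-dependent kinases, with 14.9 CPM and LOC105377411 with 12.7 CPM.

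Genes named above were split in this line. The highest VIM member had 3.04 CPM in HCC1395, that of ZEB1 1.33, that of WWTR1 4.201 and the upper EDIL3 member 3.44. All of these exceeded every basal epithelial line. In contrast, the ROR1 member upstream of the gene had 0.41 CPM, the GJA1 promoter 0.0387, the F2RL2 promoter 0.118 and the NRG1 member at chr8:32341064-32341757 0.195. None of those values exceeded every basal epithelial line. They also lay below the lowest mesenchymal line, but so did the values of the VIM and ZEB1 members.

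Because DMSO values chose the members, a low DMSO value in a basal epithelial line may be low by chance and rise in any other library, and a high value in a mesenchymal line may fall. The size of this drift was read between DMSO libraries alone. When members were chosen in 1 DMSO library of each line and read in the other 2, their summed level moved by a log2 of 0.05 to 0.14 in the basal epithelial lines, -0.04 to -0.02 in the mesenchymal lines and 0.01 in HCC1395. Responses are therefore given beside the same responses with members chosen in other libraries than those compared, and with members chosen without the line concerned. The latter are sets of another make-up. Of 2255 peaks chosen without MDA-MB-231, 583 had at least 1 CPM there in DMSO and 1229 less than 0.5 CPM. A change under that choice thus mixes the make-up of the set with the drift. No test was made of these sums, apart from an outlier limit used only to flag results for a closer look.

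MDA-MB-468 was the line in which the members gained most. Their summed level was 288 ± 3.59 CPM with the combination, 300 ± 4.38 CPM with tazemetostat, 171 ± 3.24 CPM with ipatasertib and 176 ± 6.71 CPM in DMSO (SD over 3 libraries, here and for the sums that follow). Both arms with tazemetostat lay above both arms without it, with no overlap of libraries. The log2 ratio was 0.71 for the combination over DMSO and 0.75 for the combination over ipatasertib, in which no DMSO library enters. It was 0.77 for tazemetostat over DMSO, -0.06 for the combination over tazemetostat and -0.04 for ipatasertib over DMSO. The gain was not particular to the members: the 413059 peaks below 0.5 CPM in all 8 lines moved by a log2 of 0.68 in the same comparison of combination and DMSO, and peaks open in MDA-MB-468 by -0.15. With members chosen in other DMSO libraries the ratio was 0.67, and for the 171 peaks chosen without MDA-MB-468 it was 0.35. Of these 171, 13 had at least 1 CPM in MDA-MB-468 in DMSO, as did 13 of the 583 members, so open peaks weigh more in that sum.

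The other basal epithelial lines moved less. With the combination the sum was 247 ± 4.11 CPM in HCC1937, against 213 ± 2.56 CPM in DMSO, a log2 of 0.21 that was 0.19 with members chosen in other DMSO libraries and 0.04 with those chosen without the line. In HCC1143 it was 379 ± 5.82 CPM with the combination, against 329 ± 7.799 CPM in DMSO, a log2 of 0.20 that was 0.16 and 0.21 under those choices. In BT-20 it was 229 ± 4.33 CPM with the combination, against 212 ± 2.88 CPM in DMSO, a log2 of 0.11 that was 0.04 and 0.06. In SUM-149PT, whose 4 arms were all between 449 and 469 CPM on average, the ratio was 0.04. The values for BT-20 and SUM-149PT were no larger than the drift between DMSO libraries.

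The mesenchymal lines moved in different directions. MDA-MB-231 had 1640 ± 21.8 CPM with the combination, against 1645 ± 25.9 CPM in DMSO, a log2 of -0.004 that is within the spread of its libraries. It was 0.03 with members chosen in other DMSO libraries and 0.07 with those chosen without the line. BT-549 had 1687 ± 31.9 CPM with the combination, against 1590 ± 14.5 CPM in DMSO, a log2 of 0.09 that was 0.09 and 0.15 under those choices. SUM-159PT had 1606 ± 8.88 CPM with the combination, 1586 ± 12.2 CPM with tazemetostat, 1740 ± 17.2 CPM with ipatasertib and 1723 ± 47.5 CPM in DMSO. There both arms with tazemetostat lay below both arms without it, by a log2 of -0.12 for tazemetostat over DMSO and -0.12 for the combination over ipatasertib. Peaks open in SUM-159PT as a whole moved by a like amount, -0.11 for the combination over ipatasertib, and the -0.10 of the combination over DMSO became -0.02 with peaks chosen without that line and -0.21 with TMM-scaled totals. The median log2 of single members there was -0.20 for the combination over DMSO, and 32.4% of members were higher.

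**Figure D4:**
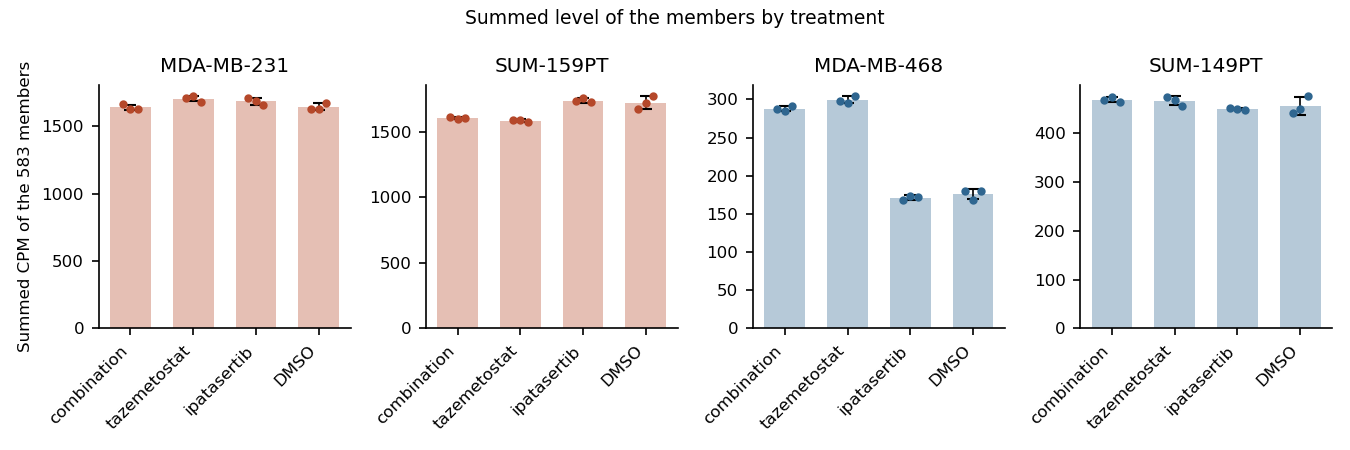
Summed level of the 583 members (CPM, axes from 0 and scaled by line) in the 4 lines with all 4 arms, under the combination, tazemetostat, ipatasertib and DMSO. Bars are means with SD, points the 3 libraries; in MDA-MB-468 both arms with tazemetostat, 288 and 300 CPM, stand above ipatasertib and DMSO, 171 and 176 CPM.

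**Figure D5:**
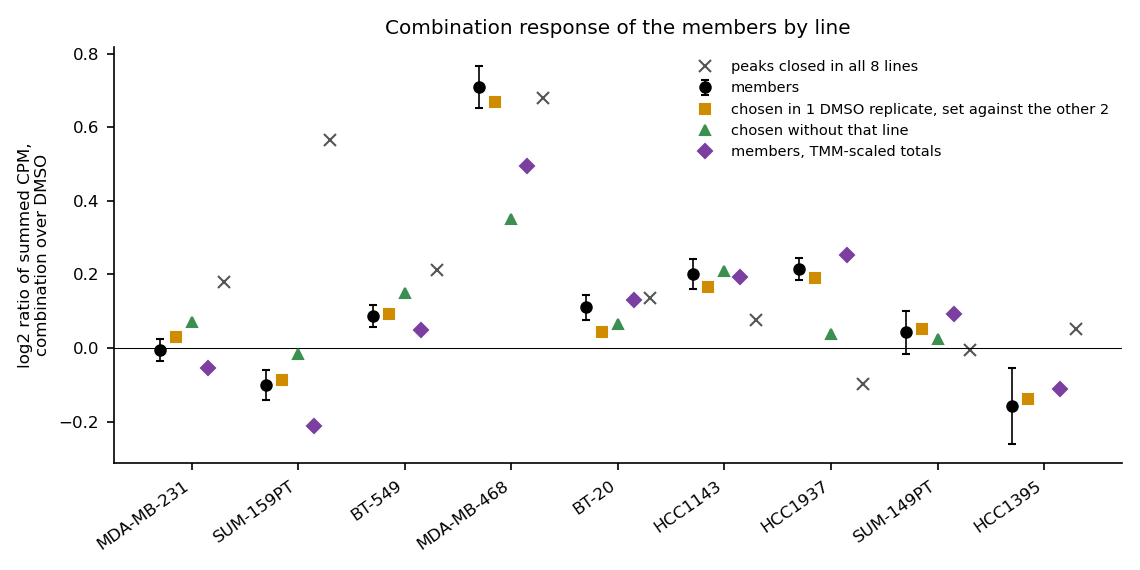
Log2 ratio of summed CPM, combination over DMSO, by line, for the members, for members chosen in other DMSO libraries or without the line, and for comparison peaks. Error bars are the SD between libraries, for the members only. MDA-MB-468 stands apart at 0.71, beside 0.68 for peaks closed in all 8 lines.

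Tested peak by peak across lines, few members passed the threshold, and few of all peaks did. For the combination against DMSO, calls in either direction made up 1.37% of members in the mesenchymal lines and 0.515% in the basal epithelial lines. All 583 passed the filter on low counts, and p-values were adjusted over 819181 peaks. With the combination against DMSO in the 3 mesenchymal lines, 5 members rose beside 0.88% of all peaks tested, and 3 fell beside 0.102% of all peaks. At an unadjusted p under 0.05, 33 of the 583 were higher, beside 8.83% of all peaks, and 78 lower, beside 5.88%. The median log2 was -0.12 for members and -0.02 for all peaks. DMSO chose the members and enters this contrast, so nothing is read from these counts. The members that rose were those of NCAM1, a neural cell adhesion molecule, with a log2 of 1.24 (SE 0.28, adjusted p = 0.0361) by edgeR's quasi-likelihood test with Benjamini-Hochberg adjustment, CHN2, a Rac regulator, with 1.14 (SE 0.24, adjusted p = 0.0261), LOC107984377 with 1.11 (SE 0.23, adjusted p = 0.0237), the small heat shock protein gene HSPB3 with 0.996 (SE 0.21, adjusted p = 0.0276), and LOC107986930 with 0.88 (SE 0.20, adjusted p = 0.0396). The count rested on few lines: of 8 calls in all, 0 passed without SUM-159PT, 3 without MDA-MB-231 or SUM-149PT, 2 without HCC1937, 4 without BT-20 and 24 without MDA-MB-468.

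A member among the 3 that fell lay in VIM, at chr10:17234009-17234215. It had 1.96 CPM with the combination, 2.41 with tazemetostat, 2.66 with ipatasertib and 3.505 in DMSO in MDA-MB-231. In SUM-159PT it had 0.855, 1.13, 1.24 and 1.53 CPM in the same order of arms, and in BT-549 3.45 CPM with the combination, against 5.36 in DMSO. The combination was the lowest arm in all 3 lines, with a log2 of -0.84 (SE 0.20, adjusted p = 0.0485) by edgeR's quasi-likelihood test with Benjamini-Hochberg adjustment, close to the threshold of 0.05 and past it in 6 of 18 alternative settings. High DMSO values in these lines chose it, which pushes this contrast downward. Over ipatasertib, with no DMSO library, the log2 was -0.58 (SE 0.26, adjusted p = 0.325) by the same test, which does not pass. The others that fell were assigned to DIPK2B, with -0.92 (SE 0.22, adjusted p = 0.0478), and to ZFP91, a zinc finger protein gene, with -1.12 (SE 0.26, adjusted p = 0.0402) by the same test. Over ipatasertib DIPK2B had -0.74 (SE 0.31, adjusted p = 0.262) and did not pass. Over DMSO DIPK2B passed in 9 and ZFP91 in 8 of the 18 alternative settings.

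The combination against ipatasertib uses no DMSO library, so the drift between DMSO libraries does not enter. The members remain peaks chosen as open in the mesenchymal lines, while most of all peaks are closed there. For this contrast the median log2 of single peaks in MDA-MB-231 was -0.04 for members and -0.03 for all peaks open in that line. In SUM-159PT it was -0.19 for members and -0.17 for all peaks open in that line. In MDA-MB-231 and SUM-159PT, 6 members rose beside 1.23% of all peaks tested and 1 fell beside 0.124%. At an unadjusted p under 0.05, 26 of the 583 were higher, beside 9.19% of all peaks, and 81 lower, beside 4.93%. The median log2 was -0.25 for members and -0.05 for all peaks. NCAM1 had 3.85 CPM with the combination, 4.14 with tazemetostat, 1.23 with ipatasertib and 1.25 in DMSO in MDA-MB-231. In SUM-159PT it had 8.88 CPM with the combination, 8.42 with tazemetostat, 2.64 with ipatasertib and 2.39 in DMSO. The arms with tazemetostat did not overlap the arms without it in either line, and the log2 was 1.58 (SE 0.23, adjusted p = 0.00359) by edgeR's quasi-likelihood test with Benjamini-Hochberg adjustment. BT-549 had no such gain, with 0.824 CPM with the combination, against 1.03 in DMSO. Of the 7 calls in all, 0 passed without SUM-159PT and 19 without MDA-MB-231.

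KCNIP4, which encodes a subunit of potassium channels, had 2.86 CPM with the combination, 3.34 with tazemetostat, 1.25 with ipatasertib and 1.39 in DMSO in MDA-MB-231. In SUM-159PT it had 5.29 CPM with the combination, 5.87 with tazemetostat, 0.772 with ipatasertib and 1.18 in DMSO, a log2 of 1.86 (SE 0.33, adjusted p = 0.0104) over both lines by edgeR's quasi-likelihood test with Benjamini-Hochberg adjustment. The other members that rose were LOC105378318 with a log2 of 1.60 (SE 0.35, adjusted p = 0.0272), KCNJ2, an inward rectifier channel gene, with 1.33 (SE 0.31, adjusted p = 0.0357), SLIT1, an axon guidance ligand gene, with 1.23 (SE 0.28, adjusted p = 0.0323), and B3GALT1-AS1 with 0.97 (SE 0.23, adjusted p = 0.03497) by the same test. The member that fell was ZFP91, at chr11:58616517-58617148 in an exon. It had 0.397 CPM with the combination, 0.386 with tazemetostat, 0.986 with ipatasertib and 1.04 in DMSO in MDA-MB-231. In SUM-159PT it had 2.39 CPM with the combination, 2.47 with tazemetostat, 5.86 with ipatasertib and 5.3 in DMSO, and the log2 was -1.42 (SE 0.28, adjusted p = 0.0178) by the same test.

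In the basal epithelial lines, the combination against ipatasertib raised 2 members beside 0.53% of all peaks tested, and lowered 0 beside 0.102%. At an unadjusted p under 0.05, 53 of the 583 were higher, beside 8.63% of all peaks, and 13 lower, beside 7.73%. The members were chosen for low levels in these lines, so the balance is not read. The GJA1 promoter had 2.14 CPM with the combination, 1.67 with tazemetostat, 0.243 with ipatasertib and 0.348 in DMSO in MDA-MB-468. In SUM-149PT it had 0.187 CPM with the combination, 0.127 with tazemetostat, 0.0184 with ipatasertib and 0.06602 in DMSO, all low values, and the log2 was 2.74 (SE 0.47, adjusted p = 0.0149) by edgeR's quasi-likelihood test with Benjamini-Hochberg adjustment. HCC1143, in which this promoter was already open, had 2.83 CPM with the combination, against 2.803 in DMSO. KHDRBS3, an RNA-binding protein gene on chromosome 8, had 1.43 CPM with the combination, 1.91 with tazemetostat, 0.0746 with ipatasertib and 0.188 in DMSO in MDA-MB-468. In SUM-149PT it had 1.01 CPM with the combination, 1.07 with tazemetostat, 0.298 with ipatasertib and 0.399 in DMSO, a log2 of 2.47 (SE 0.54, adjusted p = 0.0394) by the same test. Leaving out MDA-MB-468, MDA-MB-231 or SUM-159PT left 0 calls, leaving out SUM-149PT gave 41, and leaving out replicate 1 or 2 left 1.

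With the combination against DMSO in the 5 basal epithelial lines, 3 members rose beside 0.824% of all peaks tested and 0 fell beside 0.389%. At an unadjusted p under 0.05, 85 of the 583 were higher, beside 9.21% of all peaks, and 11 lower, beside 6.83%. The median log2 was 0.16 for members and 0.005 for all peaks. The members were chosen for low DMSO values in these lines, which pushes the contrast upward, so nothing is read from these counts and the values of single members are descriptions. The highest gain was at LOC105378789, a non-coding gene, with 2.34 CPM with the combination in MDA-MB-468, against 0.425 in DMSO. The other lines had 0.931 against 0.393 CPM in BT-20, 0.403 against 0.0486 in HCC1143, 0.578 against 0.302 in HCC1937 and 1.77 against 0.806 in SUM-149PT. It was higher in 5 of 5 lines, with a log2 of 1.54 (SE 0.27, adjusted p = 0.0116) by edgeR's quasi-likelihood test with Benjamini-Hochberg adjustment. An intronic EDIL3 member had 1.11 (SE 0.25, adjusted p = 0.0331) by the same test. A member assigned to the fucosyltransferase gene FUT10, 257310 bp from its start, had 0.98 (SE 0.24, adjusted p = 0.0485) by the same test. Over ipatasertib, with no DMSO library, none of them passed: LOC105378789 had 1.64 (SE 0.42, adjusted p = 0.0714), EDIL3 1.57 (SE 0.55, adjusted p = 0.178) and FUT10 1.70 (SE 0.60, adjusted p = 0.174) by the same test. The call for LOC105378789 over DMSO passed in 17 of 18 alternative settings, that of EDIL3 in 11 and that of FUT10 in 6. Of these 3 calls, 1 passed without BT-20, HCC1937, MDA-MB-231 or MDA-MB-468, and 6 did without HCC1143 or SUM-159PT. The difference in response between the classes, mesenchymal minus basal epithelial, passed at 0 members, beside 0.000488% of all peaks that were higher and 0% lower. The lowest adjusted p was 0.394 by edgeR. At an unadjusted p under 0.05 it gave 4 of the 583 members higher, beside 3.63% of all peaks, and 66 lower, beside 3.14%. The median was -0.31 for members and -0.02 for all peaks. High mesenchymal and low basal epithelial DMSO values chose the members and both enter this difference, which the choice pushes downward, so nothing is read from these values either.

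Of the single agents, tazemetostat against DMSO gave calls and ipatasertib did not; both contrasts hold the DMSO libraries that chose the members. In the mesenchymal lines 30 of the 583 members were higher with tazemetostat at an unadjusted p under 0.05, beside 8.40% of all peaks. There 75 were lower, beside 4.83%. After adjustment 2 members rose beside 0.745% of all peaks tested and 1 fell beside 0.0547%. These were KCNIP4 with a log2 of 1.68 (SE 0.32, adjusted p = 0.0181), NCAM1 with 1.65 (SE 0.23, adjusted p = 0.00492) and ZFP91 with -1.36 (SE 0.29, adjusted p = 0.0301) by edgeR's quasi-likelihood test with Benjamini-Hochberg adjustment. In the basal epithelial lines 1 rose, KHDRBS3 with 2.08 (SE 0.46, adjusted p = 0.0403) by the same test, beside 0.595% of all peaks, and 0 fell beside 0.125%. At an unadjusted p under 0.05, 55 of the 583 were higher there, beside 9.3% of all peaks, and 8 lower, beside 7.5%. By edgeR, ipatasertib against DMSO passed at 0 members in both classes, beside 0% of all peaks in each direction. At an unadjusted p under 0.05, 3 were higher and 0 lower in mesenchymal lines, beside 0.898% and 1% of all peaks. In basal epithelial lines 4 were higher and 2 lower, beside 1.83% and 1.26%. The combination against tazemetostat likewise passed at 0 members and 0% of all peaks in each direction. At an unadjusted p under 0.05, 1 was higher and 0 lower in mesenchymal lines, beside 1.04% and 1.09% of all peaks. In basal epithelial lines 8 were higher and 4 lower, beside 1.74% and 1.43%. DESeq2 also gave 0 members in these 4 comparisons. The tazemetostat counts also changed when a line was left out. In mesenchymal lines they were 0 without SUM-159PT and 11 without MDA-MB-231, and 7 without replicate 2. In basal epithelial lines they were 0 without MDA-MB-468, MDA-MB-231, SUM-159PT or replicate 2, 2 without replicate 3, and 41 without SUM-149PT.

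Within the lines with 4 arms, members that changed more than 1 on the log2(CPM + 0.25) scale, in the same direction with tazemetostat over DMSO and with the combination over ipatasertib, were counted as a description, since the libraries of a group are 1 sample. In MDA-MB-468, 78 members (13.4%) were higher in both, of which 12 lay on chromosome 8, beside 6.44% of all peaks. None was lower, beside 0.131% of all peaks, but only 202 members were above 0.25 CPM in both DMSO and ipatasertib, where a fall to 0 would count as lower, so the balance is not read. In SUM-159PT 23 (3.95%) were higher beside 4.69% of all peaks, and 20 (3.43%) were lower beside 0.366%. In MDA-MB-231 4 were higher and 0 lower, beside 0.432% and 0.00952% of all peaks, and in SUM-149PT 1 and 0, beside 0.154% and 0.00174%. The members were chosen for low levels in the basal epithelial and high levels in the mesenchymal lines, so nothing about them is read from these shares. Ipatasertib over DMSO moved 0 members that far in any of these lines. The largest value in MDA-MB-468 was at the member assigned to MIR573, between genes, with 4.61 CPM with the combination, 4.11 with tazemetostat, 0.434 with ipatasertib and 0.462 in DMSO. Of the higher members 10 were shared, 12.8% of the MDA-MB-468 list and 43.5% of the SUM-159PT list, among them those of TSLP, LRP1B, GPC5 and KCNIP4. TSLP, chosen here after its values were seen, had 2.87 CPM with the combination, 2.84 with tazemetostat, 0.578 with ipatasertib and 0.406 in DMSO in MDA-MB-468. In SUM-159PT it had 3.25 CPM with the combination, 4.498 with tazemetostat, 1.38 with ipatasertib and 1.83 in DMSO. Those lower in SUM-159PT included a member in the first intron of ZNF385D, with 2.26 CPM with the combination, 2.39 with tazemetostat, 6.29 with ipatasertib and 5.102 in DMSO, and the highest LOXL2 member, with 0.957, 0.545, 2.25 and 1.54 CPM in the same order of arms.

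HCC1395, independent of the rule, was tested on its 6 single libraries, although libraries of a group were elsewhere counted as 1 sample. Its p-values therefore cover only the spread between libraries of 1 line. The fit put the typical variation beyond counting at 0.00911%. These p-values cannot be taken as a measure of the spread between separate cultures. With the combination against DMSO 28 members rose (4.80%) beside 3.78% of all peaks tested, and 54 fell (9.26%) beside 2.54%. Without DMSO replicate 3 19 rose and 58 fell. Leaving 2 libraries in each arm removed most calls, with 0, 0 and 8 left in all without replicate 1, 2 or 3. Members are more often open there than peaks at large, so the counts were also set against peaks with a mean of at least 1 CPM in HCC1395. Of 243 such members 8.23% rose and 18.1% fell, against 14.1% and 10.1% of 149046 such peaks. Without DMSO replicate 3 these shares were 6.12% and 20.8% for members, against 11.8% and 8.64% for all. The summed level was 893, 909 and 866 CPM with the combination, against 1015, 1046 and 916 CPM in DMSO, a log2 of -0.16, or -0.21 without DMSO replicate 3. The opposite set had 2714, 2730 and 2657 CPM with the combination, against 2606, 2612 and 3861 CPM in DMSO, the last being the library that stood apart.

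Among the members that fell in HCC1395, that of LOC105377411 had 5.34, 5.33 and 4.77 CPM with the combination, against 13.4, 12.7 and 12.1 CPM in DMSO. Its log2 was -1.25 (SE 0.09, adjusted p = 4.72e-09) by edgeR's quasi-likelihood test with Benjamini-Hochberg adjustment. An intronic member of TMCO4 had 0.559, 0.887 and 0.387 CPM with the combination, against 2.302, 1.67 and 2.23 CPM in DMSO, a log2 of -1.69 (SE 0.27, adjusted p = 0.00021) by the same test, and that of LINC02432 had a log2 of -1.40 (SE 0.26, adjusted p = 0.00111). At both of the first named, no library of an arm overlapped the other arm. The largest gain by the naming rule was at LINC02331, with 4.84, 4.06 and 3.93 CPM with the combination, against 1.39, 0.978 and 1.06 CPM in DMSO, a log2 of 1.95 (SE 0.18, adjusted p = 1.32e-07) by the same test. NAV1, a neuron navigator gene, had 1.36 (SE 0.20, adjusted p = 9.62e-05) and ZCWPW2 1.38 (SE 0.24, adjusted p = 0.000409). Members named above also moved there: WWTR1 fell with a log2 of -0.99 (SE 0.16, adjusted p = 0.000249), ZFP91 with -0.82 (SE 0.11, adjusted p = 2.99e-05) and the highest ZNF385D member with -0.80 (SE 0.22, adjusted p = 0.024), while SLC14A2 rose with 0.50 (SE 0.05, adjusted p = 8.56e-07) by the same test. ZFP91 and DIPK2B, which fell with the combination over DMSO in the mesenchymal lines, fell in HCC1395 too, DIPK2B with -0.66 (SE 0.16, adjusted p = 0.00881) by the same test. HSPB3 and LOC107986930, which rose in that contrast, rose in HCC1395 with log2 values of 0.997 and 1.39. KCNIP4 rose in HCC1395 with 1.92. In mesenchymal lines it had passed only over ipatasertib and with tazemetostat over DMSO, in MDA-MB-231 and SUM-159PT. The others called in mesenchymal lines did not pass in HCC1395. NCAM1 had a log2 of -0.82 (SE 0.31, adjusted p = 0.129), CHN2 0.12 (SE 0.29, adjusted p = 0.882) and the VIM member -0.05 (SE 0.26, adjusted p = 0.973) by the same test. KCNJ2, SLIT1, LOC107984377, LOC105378318 and B3GALT1-AS1 had log2 values of 0.29, 1.13, -0.04, -0.004 and 0.03. Without DMSO replicate 3, the members named here kept their direction, and those that rose or fell still passed with the exception of LOC107986930, at 1.20 (SE 0.33, adjusted p = 0.052).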

How the data were processed

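The table deposited by the authors holds raw read counts in whole numbers for a common set of 861439 peaks, with a table that assigns each peak to a gene and a genomic class. The submitters' processing notes name MACS2, featureCounts and hg38. Not given in the sources used here are the tool versions, the aligner, duplicate removal and any Tn5 offset. Of 84 listed samples, 78 libraries of 9 lines were used, and the 6 of HCC1806 were not analysed here. Libraries held 12292571 to 21459284 counts, so that 1 CPM rests on 12.3 to 21.5 counts, and precision is limited accordingly.

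The members and the gene lists were chosen with earlier results of these data known. Levels are counts over library totals. Counts of the 3 libraries of each line and treatment were summed and tested with edgeR 4.0.16 in R 4.3.3 (quasi-likelihood, TMM scaling, line as block). Benjamini-Hochberg adjustment was over 819181 peaks kept by filterByExpr (minimum count 10). The TMM-scaled totals, given as an alternative for levels, used factors of 0.823 to 1.15 computed on single libraries. HCC1395 was tested on single libraries. A threshold of 0.05 was used. Alternatives were DESeq2 1.42.0, other scalings and filters, blocking on the replicate number, and fits without single lines or replicates. The test was checked on simulated data. SE values are the log2 fold over the root of the F value. Log2 ratios of single members used a pseudocount of 0.25 CPM. Python 3.11.15, numpy 2.4.6, pandas 2.3.3 and matplotlib 3.10.9 were used for the rest.

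Named genes are the 10 with the most members, up to 4 of each of 17 lists, the 10 highest members, the 4 highest in HCC1395, and the 3 largest passing members in each direction of each test with a mean of at least 2 CPM in the higher group. Where 5 or fewer passed, others are named too, and further HCC1395 members, microRNA genes and members that moved in lines with 4 arms were named after their values were seen. Gene types and promoter and microRNA sequences are from RefSeq (GRCh38.p14), to which 473 of the 477 gene identifiers matched. Motifs were searched in promoter windows only, since no genome sequence was used here.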

Additional observations from a re-analysis of the deposited data

Results flagged for a closer look

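The log2 ratio of the summed member level in MDA-MB-468, combination over DMSO, was 0.71. Its gap to the next line, HCC1937 at 0.21, was larger than Dixon's 95% limit allows, both among the 5 basal epithelial lines and among all 9 lines. In values that were not selected, chance alone sets apart about 1 in 20 groups by this measure. DMSO values chose the members and enter this ratio, so that rate does not hold here and nothing is read from the limit. Peaks closed in all 8 lines had 0.68 in MDA-MB-468, and the members read 0.49 with TMM-scaled totals, 0.35 when chosen without this line and 0.69 without chromosome 8.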

How the results depend on the processing

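Responses across lines kept few calls and their number varied. The share of all peaks called was not set beside the counts under these alternatives, here or above where a line was left out. A change in number or balance thus cannot be told from a change over all peaks. Over DMSO, the choice of members also pushes the mesenchymal lines downward and the basal epithelial lines upward. Fits of single libraries with the replicate block, which treat libraries as replicates, gave 160 calls (45 higher, 115 lower) against 8 for the combination over DMSO in mesenchymal lines, with the balance turned to lower. They gave 201 (40 and 161) for the combination over ipatasertib and 168 (44 and 124) for tazemetostat over DMSO there, also turned. In basal epithelial lines they gave 87, 81 and 81 in these comparisons, and 4 for the combination over tazemetostat, while the difference between classes had 49 and HCC1395 42. No pairing by replicate number was seen: 27 same-numbered correlations ran from -0.0249 to 0.0247, 0 were over 0.1, and 11 samples correlated best with their own number. Most libraries of a group differ by no more than counting noise, so these correlations cannot settle whether the numbers pair samples. DESeq2 gave 2 and 3 calls for the combination over DMSO and over ipatasertib in mesenchymal lines, 11 for the combination and 2 for tazemetostat over DMSO in basal epithelial lines, and 49 in HCC1395. A minimum count of 30 gave 20 (10 higher, 10 lower), 14, 8 and 4 calls for the combination over DMSO, over ipatasertib and tazemetostat over DMSO in mesenchymal lines and tazemetostat over DMSO in basal epithelial lines. Library totals gave 5 for the combination over DMSO and 5 for tazemetostat over DMSO in mesenchymal lines, and 5 for the same in basal epithelial lines, and no filter gave 5 for tazemetostat over DMSO in mesenchymal lines.

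Leaving out lines or replicates in turn gave 0 to 24 calls for the combination over DMSO in mesenchymal lines (without MDA-MB-231 it was 3, 1 higher and 2 lower, a turn) and 1 to 6 in basal epithelial lines. It gave 0 to 19 and 0 to 41 for the combination over ipatasertib in mesenchymal and basal epithelial lines, 0 to 11 and 0 to 41 for tazemetostat over DMSO, and 0 to 8 in HCC1395, where leaving out DMSO replicate 3 alone gave 77. The cause was not tested.

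Other choices of members changed the number to 45 with thresholds of 1.5 and 0.3 CPM and to 140 when all 5 basal epithelial lines had to be closed. For the combination over DMSO in mesenchymal lines, calls were then 2 (both lower) and 3 (1 higher, 2 lower), and 5 (2 and 3) with DMSO replicate 2 alone, all turned to lower. Over ipatasertib they were 0, 1 and 4, and 4 with TMM-scaled members. For tazemetostat over DMSO they were 0 and 1, 1 with TMM-scaled members and 6 (2 and 4, turned) with replicate 1. In basal epithelial lines the strict choices gave 0 calls throughout. There the combination over DMSO had 6 with TMM-scaled members and 8 and 7 with replicates 1 and 2, the combination over ipatasertib 4 and 5 with replicates 2 and 3, and tazemetostat over DMSO 3, 5 and 2 with each.

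The log2 response of the sum with members chosen in other DMSO libraries was 0.0303 in MDA-MB-231 and 0.0426 in BT-20. Chosen without the line it was 0.0701 in MDA-MB-231, -0.0161 in SUM-159PT, 0.15 in BT-549, 0.35 in MDA-MB-468, 0.064 in BT-20 and 0.0368 in HCC1937. With TMM-scaled totals it was -0.0544 in MDA-MB-231, -0.21 in SUM-159PT, 0.0485 in BT-549, 0.49 in MDA-MB-468 and 0.25 in HCC1937. The share of members at 1 CPM or more in HCC1395 was 43.4% to 44.8% with TMM-scaled totals or without a replicate, and 42.2% to 45.5% in single libraries.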
